A study of Homo sapiens with 24 samples.

Results

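The genes described here encode the MuvB core and the pocket, E2F and DP proteins that join it in the DREAM complex. They were matched by symbol, as known subunits and with no threshold on a measured value, and are 10 of the 58721 gene identifiers in each count table. The MuvB core was represented by LIN9, LIN37, LIN52, LIN54 and RBBP4. The pocket proteins were RBL1 and RBL2, and the E2F and DP subunits were E2F4, E2F5 and TFDP1. All 10 had counts in each of the 24 libraries, and all 10 passed edgeR's filter on low counts in each comparison of a treatment with its control.

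The libraries came from A549, an established human lung adenocarcinoma cell line, and RNA-seq counted the poly(A) RNA of whole cultures. In the single knockdowns, cells received 25 nM of siRNAs against MYBL2 (siMYBL2, 4 libraries), siRNAs against FOXM1 (siFOXM1, 4 libraries) or scrambled siRNA (siControl, 4 libraries). In the double knockdown, cells received both sets of siRNAs (siBoth, 3 libraries) or the control siRNA of that experiment (siControl_Both, 3 libraries). In the compound experiment, cells were treated with 20 µM of FDI-6, a small molecule described as a blocker of FOXM1 binding to DNA, for 24 h (FDI6, 3 libraries), with 3 libraries as their controls (control_FDI6). The siMYBL2 and siFOXM1 comparisons share their siControl libraries. The labels name neither what the control_FDI6 cells received nor the time between transfection and harvest, and the study's text calls these controls DMSO in one place and untreated in another. The study's methods call the replicates biological, but the labels do not say that they were separate cultures, and p-values then measure only the spread between these libraries, which may be technical. In RNA of whole cultures, fewer cells that use a gene and less of its RNA per cell cannot be told apart.

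MuvB is a switch platform of the cell cycle. In resting and early G1 cells it binds a pocket protein with a repressor E2F and its DP partner, and this DREAM complex holds cell-cycle genes down. In proliferating cells the pocket proteins leave, MuvB binds MYBL2 (B-MYB) and then FOXM1, and the same promoters are activated. Within the core, LIN54 contacts the cell cycle genes homology region of the DNA, LIN52 contacts the pocket protein, LIN9 is a scaffold that also takes part in binding MYBL2, LIN37 is needed for repression, and RBBP4 is a histone-binding protein that also serves several other chromatin complexes. The study lowered the activators. The comparisons below ask how the RNA of their partner subunits stood in the same cells.

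From 16487394 to 30140550 read pairs per library were counted on genes. The share of pairs that were not aligned was 7.68% to 10.93% in the 6 libraries of the double knockdown, against 1.73% to 3.03% in the 18 others. Levels under a treatment are therefore compared with libraries of the same experiment. Levels and ranges pooled over experiments, given below, are descriptions. MYBL2 stood at 4.1% of its control mean with siMYBL2 and at 4.82% with siBoth. FOXM1 stood at 9.54% with siFOXM1 and 9.49% with siBoth, and it was also lower with siMYBL2, at 59.4%. With FDI-6 the means were 68.9% of control for MYBL2 and 76.3% for FOXM1. Epithelial keratins were abundant (KRT8 from 1610 to 5640 normalized counts), and the epithelial markers EPCAM (1.66 to 37.8) and CDH1 (9.31 to 91.0) were lower. Markers of blood and endothelial cells were at or near 0 (CD3E at 0 in every library, PECAM1 up to 2.8). COL1A1, on the list of markers of other lung cells, had 4.87 to 57.9. In both knockdown experiments the summed normalized counts of 6 epithelial markers overlapped between the treated and control libraries.

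The promoters of LIN9, LIN54 and RBL1 are shown as examples that hold sequence elements known from DREAM target genes. They were chosen with their levels known, as their log2 fold changes were below 0 in the knockdowns. With siFOXM1 LIN9 (-0.10) and LIN54 (-0.03) lay near 0 and overlapped with siControl. TFDP1 also holds an E2F site and was below 0 with siMYBL2 (-0.13), siFOXM1 (-0.10) and siBoth (-0.11), but is not shown. A link between element and level was not tested. The sequences are from RefSeq (GRCh38.p14) and cover the 250 bases before the transcription start, 5′ to 3′ on the strand of the gene. Capitals mark matches to the cell cycle genes homology region, TTTGAA or TTCGAA, or to the E2F site TTTNNCGC, searched on both strands. LIN9 lies on the minus strand of chromosome 1 and its window is chr1:226309165-226309414. LIN54 lies on the minus strand of chromosome 4, with the window chr4:83010824-83011073. RBL1 lies on the minus strand of chromosome 20, with the window chr20:37095998-37096247.
LIN9: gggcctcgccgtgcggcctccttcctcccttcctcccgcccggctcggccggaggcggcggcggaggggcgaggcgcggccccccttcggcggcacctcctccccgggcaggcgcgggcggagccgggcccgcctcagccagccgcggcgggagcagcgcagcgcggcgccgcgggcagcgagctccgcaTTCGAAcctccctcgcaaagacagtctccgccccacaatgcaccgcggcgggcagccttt
LIN54: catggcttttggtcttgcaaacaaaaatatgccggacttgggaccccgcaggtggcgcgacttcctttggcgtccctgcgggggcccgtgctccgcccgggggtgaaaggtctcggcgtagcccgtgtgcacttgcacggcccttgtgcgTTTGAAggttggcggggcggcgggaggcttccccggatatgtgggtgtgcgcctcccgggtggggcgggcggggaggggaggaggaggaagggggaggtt
RBL1: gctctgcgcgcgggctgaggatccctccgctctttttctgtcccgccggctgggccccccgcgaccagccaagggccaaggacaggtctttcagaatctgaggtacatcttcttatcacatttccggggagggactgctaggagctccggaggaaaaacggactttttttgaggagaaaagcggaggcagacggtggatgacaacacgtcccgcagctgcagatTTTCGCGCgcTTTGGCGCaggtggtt

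The palindrome TTCGAA of LIN9 begins 60 bases before the start, and the form TTTGAA of LIN54 begins 100 bases before it. RBL1 holds a pair of E2F-type matches, 26 and 16 bases before the start. Among all 35116 promoter windows of this length, 1.19% hold TTCGAA, 13.3% hold TTTGAA and 5.92% hold TTTNNCGC. Windows at the annotated start were used for 9 of the 10 genes, and E2F5 was left out. LIN52 (25 bases before the start) and TFDP1 (120 bases before it) also hold TTTNNCGC. CCAAT, which is in 32.0% of all windows, occurs in LIN37, LIN52 and RBBP4, and a MYB-type match (CAACNG or TAACNG, 39.3% of all windows) in LIN37, LIN52 and RBL2. The window of E2F4 holds none of these letters. A match is a description of the letters and not evidence of binding.

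In the 10 control libraries the subunits were far from equal in level. Levels between genes were set on a scale of normalized counts (CPM, counts scaled by TMM-adjusted library size) per kb of annotated exon. TFDP1, the partner that E2Fs need for binding DNA, was highest with a median of 37.3 per kb. E2F4, the main repressor E2F, had 28.6 per kb and RBBP4 14.2 per kb. The ranges of these genes over the control libraries overlapped neither with each other nor with that of the next gene. RBL2 (7.46 per kb), RBL1 (6.95), LIN9 (5.45), LIN52 (3.63), LIN54 (3.26) and E2F5 (2.69) followed over the pooled controls, and each of them overlapped with its neighbor. Their order differed between experiments. RBL1 had a mean of 8.58 per kb and RBL2 7.84 in siControl, with overlap, and in control_FDI6 RBL1 (6.77) lay above RBL2 (5.07) without overlap. In siControl_Both RBL2 (7.92) lay above RBL1 (6.09) without overlap. LIN54 was above LIN52 in siControl (4.23 and 3.52), and E2F5 was above LIN54 in control_FDI6 (3.18 and 2.25). LIN37 was lowest in all 3 control groups, with a pooled median of 0.467 per kb.

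**Figure D1:**
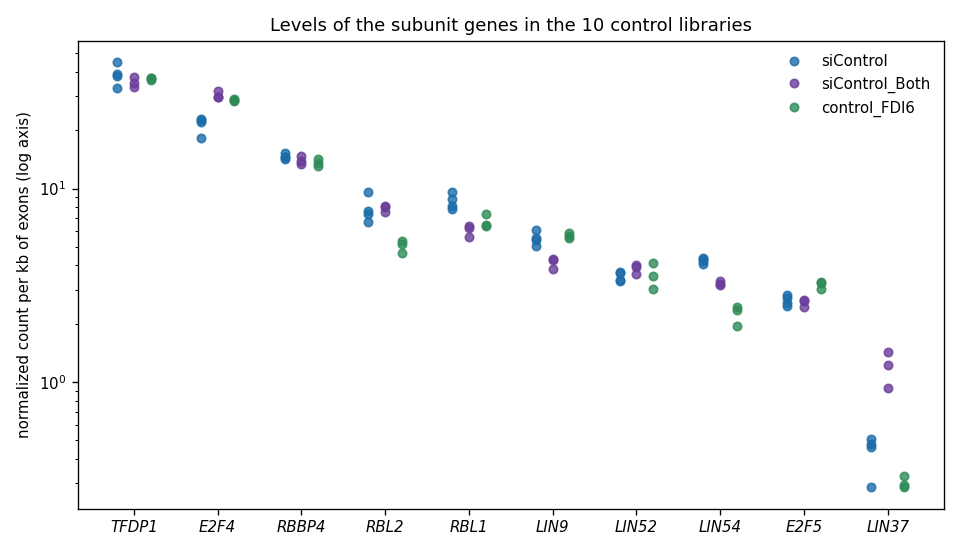
Normalized count per kb of exon (log axis) of each subunit gene in the 10 control libraries, 1 point per library, colored by control group. TFDP1, E2F4 and RBBP4 stand above the others, and LIN37 is lowest, with its highest points in siControl_Both.

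LIN37 rested on few reads. It had 946 pairs over all 24 libraries and 7 to 87 per library. In the annotation used here (GENCODE V44, hg38), LIN37 lies at chr19:35748361-35754519 on the plus strand. Of its exon bases, 26.7% are shared with another gene on the same strand and 41.8% lie opposite another gene. The counting left out pairs that fit more than 1 gene, so the level of LIN37 is a partial count. Its means were 3.35 normalized counts in siControl_Both, 1.22 in siControl and 0.852 in control_FDI6. Other subunits with exon bases opposite another gene were RBBP4 (22.8%), E2F5 (18.8%), RBL2 (16.4%) and RBL1 (3.6%), and the strand setting of the counting was not given in the sources used here. RBBP4 has 7 named pseudogenes, the most counted of which had 86 pairs over all libraries against 75411 for RBBP4, and reads that these copies share were left out of the counts.

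The subunits differed in how far they ranged. From the lowest to the highest of the 24 libraries, LIN37 ranged 9.54-fold, E2F4 2.76-fold, LIN9 2.56-fold, RBL1 2.34-fold, LIN54 2.23-fold and RBL2 2.18-fold. E2F5 (1.52-fold), TFDP1 (1.53-fold), LIN52 (1.56-fold) and RBBP4 (1.38-fold) varied least. Much of this range lay between experiments. E2F4 had 65.7 to 82.1 normalized counts in siControl but 106 to 115 in siControl_Both and 102 to 105 in control_FDI6, and LIN54 had 27.5 to 29.4, 21.5 to 22.4 and 13.2 to 16.6 in the same order.

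**Figure D2:**
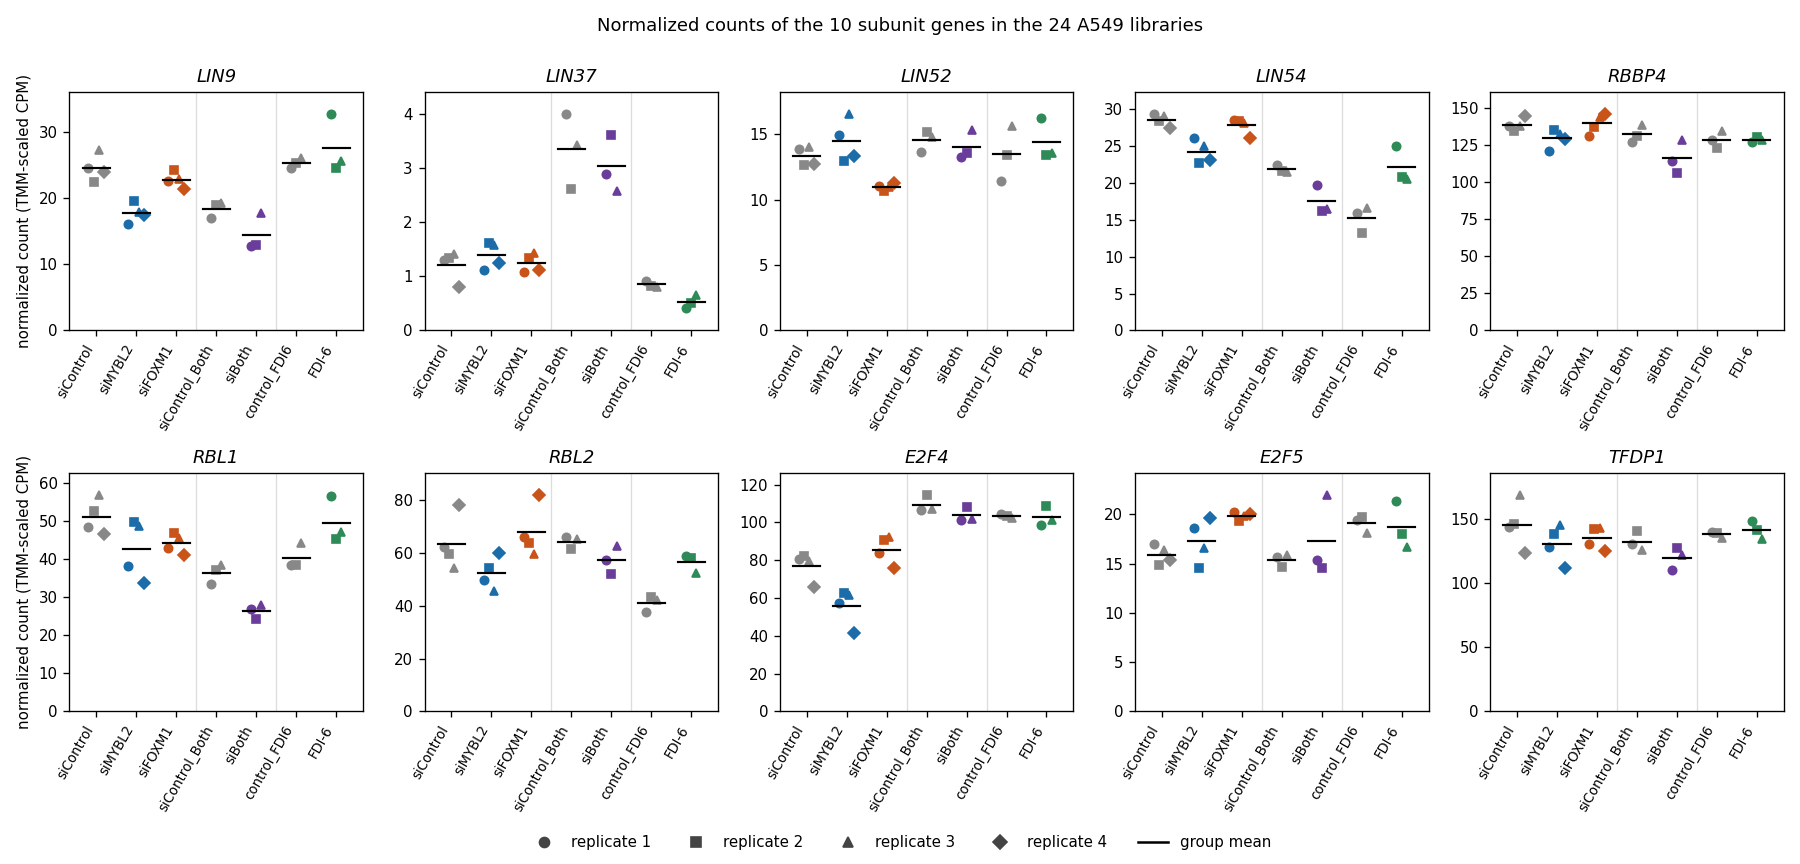
Normalized count (linear axes from 0) of the 10 subunit genes in each library, with the group mean as a line and the replicate number as the marker. E2F4 and LIN9 lie below their controls with siMYBL2, RBL1 lies below its controls with siBoth, and LIN54 and RBL2 lie above their controls with FDI-6.

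The siMYBL2 comparison asked how the subunits stood when MYBL2, the first activator that MuvB binds, was lowered. LIN9 and E2F4 fell, and the other 8 did not pass the test. LIN9 had 16.2, 19.6, 17.9 and 17.5 normalized counts in siMYBL2 replicates 1 to 4 and 24.6, 22.5, 27.2 and 24.0 in siControl. Every siMYBL2 library lay below every siControl library, and the share of all genes with groups apart was not counted. The log2 fold change was -0.44 ± 0.09 (SE, n = 4 per group, edgeR quasi-likelihood test with Benjamini-Hochberg adjustment, adjusted p = 0.00899). LIN9 passed in all 8 fits that each left out 1 library, with an edgeR adjusted p of 0.0112 to 0.0324.

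E2F4 (chr16:67192155-67198918, plus strand) had 57.5, 62.9, 61.7 and 41.5 normalized counts in siMYBL2 and 80.9, 82.1, 79.5 and 65.7 in siControl. The groups did not overlap, and replicate 4 was lowest in both. The log2 fold change was -0.44 ± 0.13 (SE, n = 4 per group, edgeR adjusted p = 0.0421). This call was close to the threshold. It was lost without siMYBL2 replicate 1 or 3 or without siControl replicate 1, 2 or 3, with fold changes of -0.52 to -0.33 and edgeR adjusted p-values of 0.0226 to 0.107 over the 8 fits. Upper-quartile scaling also ended it (-0.39, edgeR adjusted p = 0.0598).

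In this comparison 9.53% of the 16065 genes tested passed the test as lower, 8.53% passed as higher, and 2 of the 10 subunits passed as lower. With upper-quartile scaling the split of all genes went from 1531 lower and 1371 higher to 1215 and 1771. Neither subunit reached the 1.5-fold change that 7.9% of all genes passed in either direction, and DESeq2 called 0 subunits at that fold as well. At an unadjusted p under 0.05, edgeR counted 3 subunits. The share of all genes at that unadjusted threshold is not given here or in the later comparisons, so such counts are descriptions. The median log2 fold change was -0.17 over the subunits and 0.01 over all genes. LIN54, the DNA-contacting subunit, had 26.1, 22.7, 25.0 and 23.1 normalized counts against 29.4, 28.4, 29.1 and 27.5, without overlap, and missed the threshold (log2 fold change -0.22 ± 0.07, edgeR adjusted p = 0.0682). LIN54 passed with DESeq2 (adjusted p = 0.0381) and with edgeR on all 12 single-knockdown libraries in 1 fit (adjusted p = 0.0255).

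Libraries with the same replicate number deviated from their group means together in the knockdown experiments, and a fit with the replicate number as a block was therefore set beside each of these results. With the block, 6 subunits fell with siMYBL2, and 23.1% of all genes passed as lower and 23.6% as higher. They were E2F4 (edgeR adjusted p = 1.36e-05), LIN9 (0.000249), RBL2 (0.00101), RBL1 (0.00344), LIN54 (0.00774) and TFDP1 (0.0152). RBL1 and RBL2 were below their same-numbered control in 4 of 4 pairs each, with log2 fold changes of -0.25 for both in the blocked fit. None of the 6 reached 1.5-fold. LIN52 and E2F5 were on the other side of 0 (log2 fold changes 0.14 and 0.15) and did not pass in either fit.

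The siFOXM1 comparison asked the same with FOXM1 lowered. No subunit passed the test with edgeR (3 had an unadjusted p under 0.05), and DESeq2 passed 1, E2F5 (log2 fold change 0.33, DESeq2 adjusted p = 0.00339). This was a smaller response in all, since 1.09% of the 15892 genes tested passed as lower, 0.277% as higher, and 0.667% in either direction with 1.5-fold. The median log2 fold change of the subunits was -0.01, and that of all genes was 0.00.

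A few subunits had groups apart from, or paired values on one side of, their controls. How many of all genes did so was not counted, so these are descriptions. LIN52, the pocket protein contact, had 11.0, 10.7, 11.0 and 11.3 normalized counts with siFOXM1 and 13.9, 12.7, 14.1 and 12.7 in siControl, and the groups did not overlap. E2F5, the second repressor E2F, had 20.2, 19.3, 19.8 and 20.1 against 17.0, 14.8, 16.4 and 15.4, also without overlap. RBL1 was below its same-numbered control in 4 of 4 pairs, by 0.17 to 0.33 on the log2 scale. With the replicate block, 14.0% of all genes passed as lower and 12.3% as higher, and 6 subunits passed: LIN52 (log2 fold change -0.27, edgeR adjusted p = 0.00584), RBL1 (-0.21, 0.000602) and TFDP1 (-0.10, 0.0459) as lower, and E2F5 (0.33, 0.000183), E2F4 (0.16, 0.00205) and RBL2 (0.10, 0.0479) as higher.

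The knockdowns were also compared directly, without the controls they share. E2F4 was lower with siMYBL2 than with siFOXM1, where it had 83.9, 90.5, 92.3 and 75.9 normalized counts. The log2 difference, siMYBL2 minus siFOXM1, was -0.61 ± 0.13 (SE, n = 4 per group, edgeR adjusted p = 0.00852), the only subunit past 1.5-fold. LIN9 was lower by -0.35 ± 0.08 (edgeR adjusted p = 0.015) and RBL2 by -0.36 ± 0.11 (0.0469), and LIN52 was higher by 0.41 ± 0.10 (0.0185). So 4 of 10 subunits differed, in a comparison in which 23.2% of all genes did. RBL2 lost the call without siMYBL2 replicate 1, 2 or 3 or siFOXM1 replicate 1, 2 or 4 (edgeR adjusted p from 0.0234 to 0.13 over the 8 fits), with upper-quartile scaling (0.0807) and with at least 10 counts in every library (0.0529). LIN52 lost it without siMYBL2 replicate 1 or siFOXM1 replicate 1 or 2 (0.0137 to 0.0543). Blocked by replicate number, 5 subunits passed (LIN54 in addition) and 48.9% of all genes.

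In the double knockdown the pocket protein RBL1 (p107), a gene under E2F control, fell. RBL1 had 26.8, 24.3 and 27.8 normalized counts with siBoth and 33.4, 37.1 and 38.3 in siControl_Both, and the groups did not overlap. The log2 fold change was -0.44 ± 0.10 (SE, n = 3 per group, edgeR adjusted p = 0.0252). The call was lost without siBoth replicate 1 or 2 or without siControl_Both replicate 2 or 3 (fold changes -0.50 to -0.39, edgeR adjusted p 0.033 to 0.0962 over the 6 fits). A correction for GC content and gene length, chosen after the data were seen, moved the log2 fold change to -0.28 (edgeR adjusted p = 0.0716 without the block and 0.00628 with it).

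RBL1 was the only subunit of 10 to pass in the fit without a block, where 7.77% of the 15812 genes passed as lower and 4.55% as higher. Upper-quartile scaling changed that split from 1229 lower and 720 higher to 826 and 1064. No subunit passed the test at 1.5-fold by edgeR or DESeq2, against 6.44% of all genes, and 2 had an unadjusted p under 0.05. Of the 10 fold changes, 9 were below 0, and their median was -0.12 against 0.02 over all genes. The share of all genes below 0 is not given here. With upper-quartile scaling LIN52 (0.0526) and E2F4 (0.0271) lay above 0 as well. LIN54 had 19.8, 16.2 and 16.5 against 22.4, 21.7 and 21.5 normalized counts without overlap (log2 fold change -0.29 ± 0.11, edgeR adjusted p = 0.123). LIN9 had 12.8, 12.9 and 17.7 against 17.0, 19.0 and 19.2, with siBoth replicate 3 inside the control range (-0.32 ± 0.15, edgeR adjusted p = 0.193). With the replicate block, RBL1 (edgeR adjusted p = 0.001), LIN9 (0.0273) and LIN54 (0.0273) passed as lower, beside 18.5% of all genes as lower and 16.3% as higher. When the blocked fit was also corrected for GC content and length, LIN9 (log2 fold change -0.23, edgeR adjusted p = 0.069) and LIN54 (-0.12, 0.271) no longer passed, while E2F4 (-0.19, 0.0211) passed as lower and E2F5 (0.34, 0.0195) as higher.

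The double knockdown was also compared with siMYBL2 alone, and E2F4 had the lowest p of the subunits there. E2F4 had 102, 108 and 102 normalized counts with siBoth and 106, 115 and 107 in siControl_Both (log2 fold change -0.05 ± 0.08, edgeR adjusted p = 0.713). The siBoth effect minus the siMYBL2 effect was 0.39 ± 0.17 (95% confidence interval 0.04 to 0.75), with an edgeR adjusted p of 0.593, in a contrast that 0.176% of genes passed. None of the 10 subunits passed it by edgeR or DESeq2, and 1 had an unadjusted p under 0.05. In the blocked fit E2F4 passed at 0.40 (edgeR adjusted p = 0.00721), the only subunit to do so, beside 7.05% of all genes. The experiments in this contrast also differ in the share of unaligned pairs and in the E2F4 level of their controls, and the part of these was not tested. Against the sum of both single effects, the siBoth effects departed for 0 subunits and 0.0% of genes with edgeR, 0 subunits and 1 gene with DESeq2, and 0 subunits at an unadjusted p under 0.05. The blocked fit passed 216 genes and 0 subunits.

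The FDI-6 comparison asked how the subunits stood under a compound directed at FOXM1. Here the pocket proteins and LIN54 rose. RBL2 (p130, the pocket protein of resting cells; chr16:53433977-53491648) had 59.1, 58.1 and 52.6 normalized counts with FDI-6 and 37.8, 43.5 and 42.1 in its controls. Its log2 fold change was 0.48 ± 0.08 (SE, n = 3 per group, edgeR adjusted p = 0.000868). LIN54 had 25.0, 20.9 and 20.5 against 15.9, 13.2 and 16.6, with a log2 fold change of 0.56 ± 0.12 (edgeR adjusted p = 0.00329). RBL1 had 56.4, 45.2 and 47.0 against 38.5, 38.3 and 44.2, with a log2 fold change of 0.32 ± 0.10 (edgeR adjusted p = 0.0244).

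In none of these 3 genes did the groups overlap. LIN37, which did not pass, had groups apart as well, and the share of all genes without overlap was not counted. Markers moved between the same groups. The summed normalized counts of 6 epithelial markers were 5970 to 6850 with FDI-6 and 9810 to 10600 in its controls, and those of 10 markers of other lung cells, mostly COL1A1, were 5.59 to 9.8 and 18.4 to 20.8. CD3E was at 0, and the part of these levels in the results was not tested. RBL2 and LIN54 passed in all 6 fits that left out 1 library, and RBL1 was lost without control_FDI6 replicate 1 (log2 fold change 0.28, edgeR adjusted p = 0.111) or 2 (0.27, 0.112). The response was broad. Of the 15240 genes tested, 21.0% passed as higher and 17.9% as lower, so 3 of 10 subunits as higher stands beside a large background. No subunit passed the test with a change over 1.5-fold by edgeR or DESeq2, which 13.8% of all genes did. The median log2 fold change was 0.08 over the subunits and -0.01 over all genes.

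These 3 values moved with a correction for GC content and gene length, which was chosen after the data were seen. RBL1 (40.0% GC in its longest transcript) went to 0.04 (edgeR adjusted p = 0.67), LIN54 (39.1% GC) to 0.25 (0.0549), and RBL2 (43.1% GC) to 0.25 (0.00901). Under the same correction E2F4 (59.3% GC) went from 0.02 to 0.30 (edgeR adjusted p = 0.00125), RBBP4 (41.4% GC) from 0.02 to -0.29 (0.00143) and E2F5 (38.3% GC) from -0.01 to -0.30 (0.0177). Only RBL2 was past the threshold in the same direction both ways among the subunits of the FDI-6 comparison. RB1, the third pocket protein and no part of DREAM, also rose without the correction (log2 fold change 0.57 ± 0.09, edgeR adjusted p = 0.000459). Its corrected value is not given here. RB1 is 1 of 7 partners and paralogues, of which 2 rose and 2 fell, beside 21.0% of all genes as higher.

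LIN37 had 0.421, 0.517 and 0.653 normalized counts with FDI-6 and 0.919, 0.828 and 0.808 in its controls, on 7 to 17 pairs per library. The groups did not overlap. The log2 fold change was -0.65 ± 0.36, with a 95% confidence interval of -1.44 to 0.15 (edgeR adjusted p = 0.184), and LIN37 did not pass. With the correction for GC content and length it was -0.31 (edgeR adjusted p = 0.573). E2F4, E2F5, RBBP4 and TFDP1 lay within 0.06 of 0 on the log2 scale, with the widest 95% interval, that of E2F5, from -0.25 to 0.23.

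**Figure D3:**
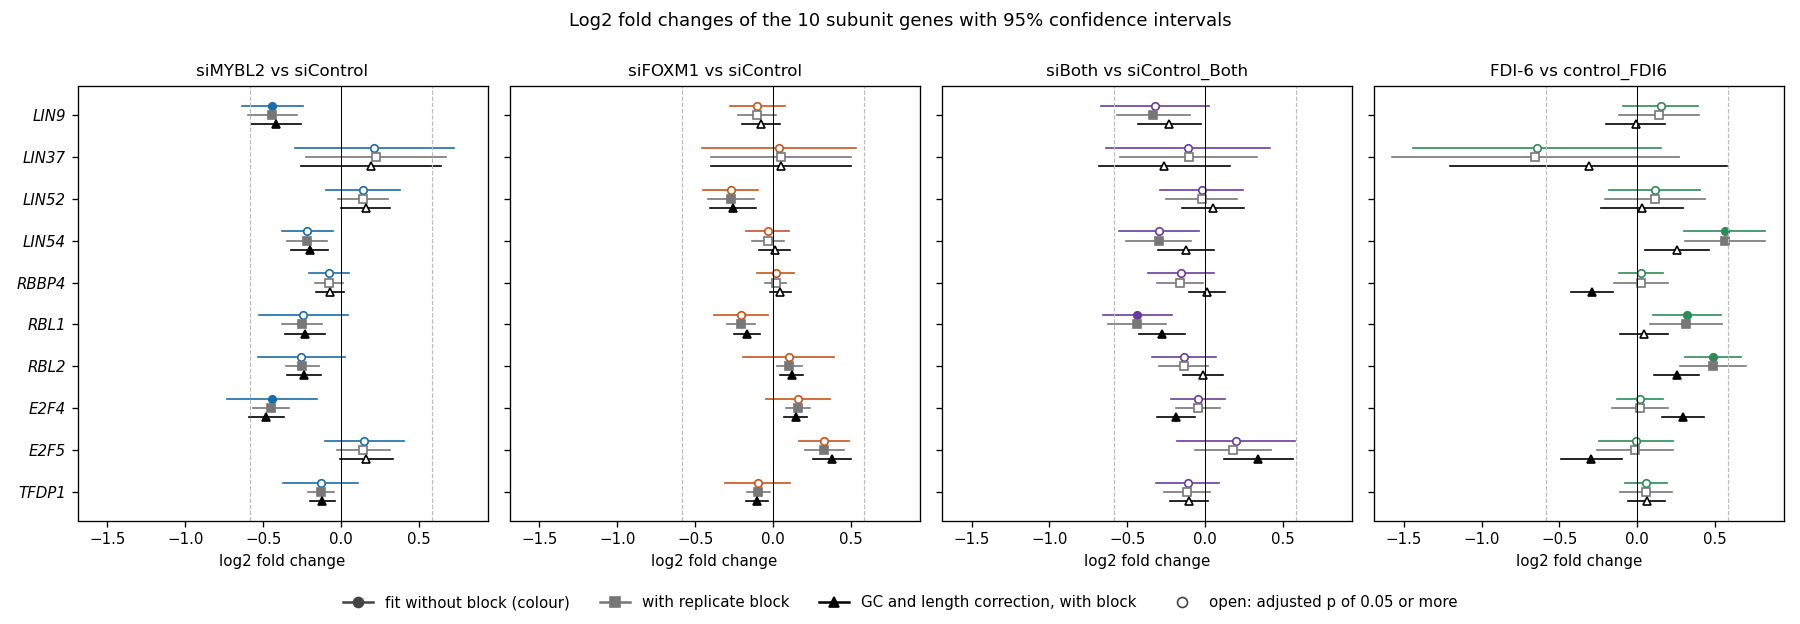
Log2 fold change of each subunit gene in the 4 comparisons, with 95% confidence intervals, from the fit without a block, the blocked fit, and the blocked fit corrected for GC content and length. Filled markers have an adjusted p under 0.05 and dashed lines mark 1.5-fold. Intervals narrow with the block in the knockdowns, and with FDI-6 the corrected values of LIN54, RBL1 and RBL2 lie closer to 0.

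FDI-6 and siFOXM1 are both directed at FOXM1, and their effects were tested against each other, although dose, agent and duration differ. LIN54 had an FDI-6 effect above its siFOXM1 effect by 0.59 ± 0.13 on the log2 scale (edgeR adjusted p = 0.00636) and RBL1 by 0.52 ± 0.13 (0.0118). These were 2 of 10 subunits, in a contrast that 20.9% of all genes passed, and LIN54 alone passed with a difference over 1.5-fold. Both passed in all 14 fits that left out 1 library. With the GC and length correction, neither passed (LIN54 0.24, edgeR adjusted p = 0.208, and RBL1 0.21, 0.288). In the blocked fit 4 subunits passed, RBL2 and E2F5 in addition, beside 38.3% of all genes.

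The pocket proteins can replace each other in the complex, as can E2F4 and E2F5, so their ratios within a library were compared. A ratio of this kind needs no scaling between libraries. There were 8 tests (exact permutation test over libraries, two-sided, Benjamini-Hochberg adjusted over the 8), and none passed. The smallest p that 3 against 3 libraries allow is 0.1, and that of 4 against 4 is 0.0286, so after adjustment over the 8 no ratio could have passed and the values are descriptions.

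With siBoth, RBL1 had 0.443 to 0.467 pairs per RBL2 pair, against 0.507 to 0.604 in siControl_Both, without overlap (exact permutation p = 0.1, the smallest possible, adjusted p = 0.381). With siFOXM1 the RBL1 to RBL2 ratio was below that of its numbered siControl partner in 4 of 4 pairs, with a mean log2 difference of -0.31 and overlapping groups (exact permutation p = 0.229, adjusted p = 0.458). With siMYBL2, in which both pocket proteins were lower to a like degree, the ratio differed by -0.01 on the log2 scale (exact permutation p = 0.971). The E2F4 to E2F5 ratio with siMYBL2 was 2.12 to 4.33, against 4.28 to 5.55 in siControl, lower in 4 of 4 pairs (log2 difference -0.59, exact permutation p = 0.0571, adjusted p = 0.381). The E2F4 to E2F5 ratio was also lower in 4 of 4 pairs with siFOXM1 (-0.17) and in 3 of 3 with siBoth (-0.22), and the RBL1 to RBL2 ratio was lower in 3 of 3 pairs with FDI-6 (-0.17).

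**Figure D4:**
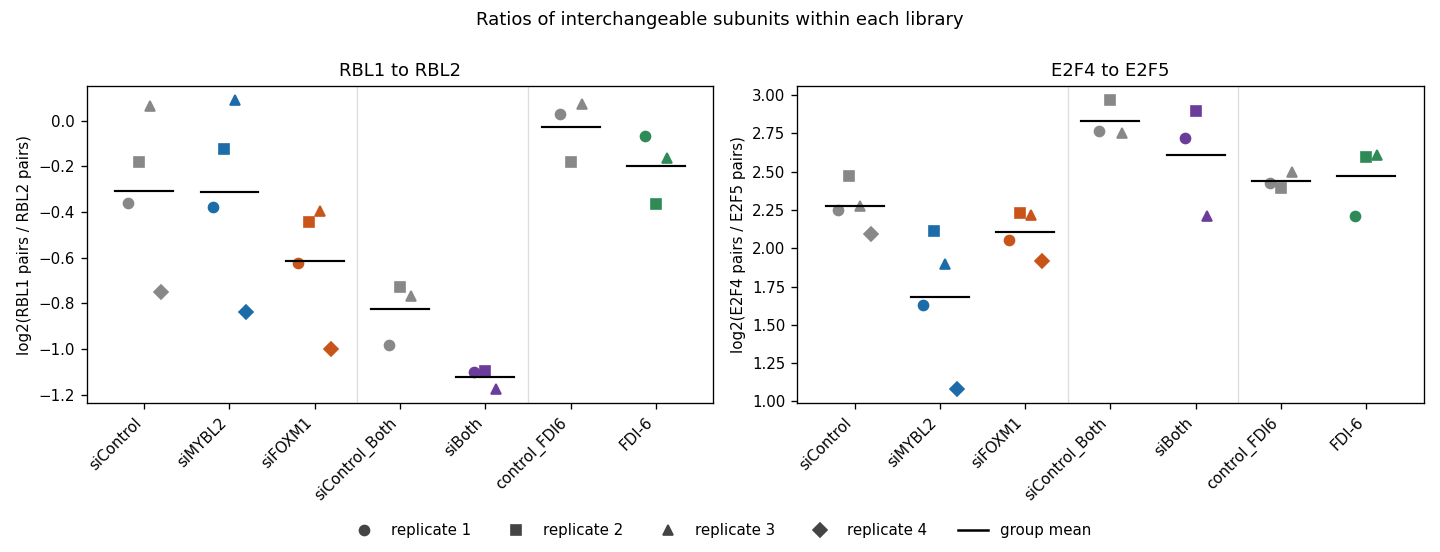
Log2 ratio of RBL1 to RBL2 pairs and of E2F4 to E2F5 pairs in each library, with the group mean as a line and the replicate number as the marker. Replicate 4 of the single knockdowns is lowest for both ratios in all 3 groups, and the siBoth libraries lie below siControl_Both for RBL1 to RBL2.

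Replicate 4 stood apart in the single knockdowns. Its RBL2 was highest in siControl (78.1), siMYBL2 (60.1) and siFOXM1 (82.2) and its E2F4 lowest in each (65.7, 41.5 and 75.9 normalized counts). RBL1 and TFDP1 were also lowest in replicate 4 in all 3 groups. The replicate block takes this shared shift out of the comparison, and without it the shift widens the spread in each group.

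Lists of target genes of the complex were set beside the subunits, with no test between lists. A list of 36 late cell-cycle genes with the homology region, such as CDK1, KIF20A and MKI67, had a median log2 fold change of -0.53 with siMYBL2, and 24 of 36 fell, beside 9.53% of all genes. With siFOXM1 the median was -0.14 and 7 of 36 fell (1.09% of all genes), among them CDK1, the kinase of mitotic entry (-0.69 ± 0.05, edgeR adjusted p = 0.000274), and NEK2 (-0.92 ± 0.08, 0.000572). With siBoth the median was -0.81 and 27 of 36 fell (7.77% of all genes), with the mitotic kinesin KIF20A at -2.21 ± 0.14 (edgeR adjusted p = 0.000157). With FDI-6 the median was -0.13, and 13 of 36 fell and 2 rose (17.9% and 21.0% of all genes). Over the same comparisons the medians of the 10 subunits were -0.17, -0.01, -0.12 and 0.08. No gene on this list rose in a knockdown in the fit without a block.

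Of 38 early, E2F-type targets that were tested, such as TK1 and the MCM genes of DNA replication, 15 fell with siMYBL2 (median -0.39), 0 passed with siFOXM1 (-0.09), 11 fell with siBoth (-0.34) and 18 fell with FDI-6 (-0.20). Of all genes, 9.53%, 1.09%, 7.77% and 17.9% passed as lower in the same order. In the blocked fit the early targets that fell numbered 33, 17 and 25 in the knockdowns in that order, 1 rose in each, and of the late targets 34, 21 and 33 fell and 1 rose, with siFOXM1. The shares of all genes that passed as lower in these fits were 23.1%, 14.0% and 18.5%. Among 16 tested regulators of the assembly of DREAM (cyclins, their kinases and inhibitors), 2 fell with siMYBL2, near the 9.53% of all genes. With siFOXM1 1 fell (1.09% of all genes). With siBoth 3 fell and 1 rose (7.77% and 4.55% of all genes). With FDI-6 7 fell (17.9% of all genes) and 3 rose, the last near the 21.0% of all genes that rose. CCND3, a G1 cyclin, fell with siMYBL2 (-1.23 ± 0.15, edgeR adjusted p = 0.000968) and with FDI-6 (-1.15 ± 0.09, 2.51e-06). It also fell with siBoth (-0.635 ± 0.096, edgeR adjusted p = 0.00601). CCNA2 fell with siMYBL2 (-0.70 ± 0.15, edgeR adjusted p = 0.013) and with siFOXM1 (-0.61 ± 0.10, 0.0262). Its fall with siBoth was -1.46 ± 0.10 (edgeR adjusted p = 0.000257). Of 7 partners and paralogues of the subunits, 3 fell with siMYBL2, 1 with siFOXM1 and 2 with siBoth, and 2 fell and 2 rose with FDI-6. The 1 with siFOXM1 was FOXM1 and the 2 with siBoth were MYBL2 and FOXM1, so these counts hold only the targets of the siRNAs. MYBL2, the target of siMYBL2, was also 1 of the 3 there. The shares of all genes are those given for the regulators.

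**Figure D5:**
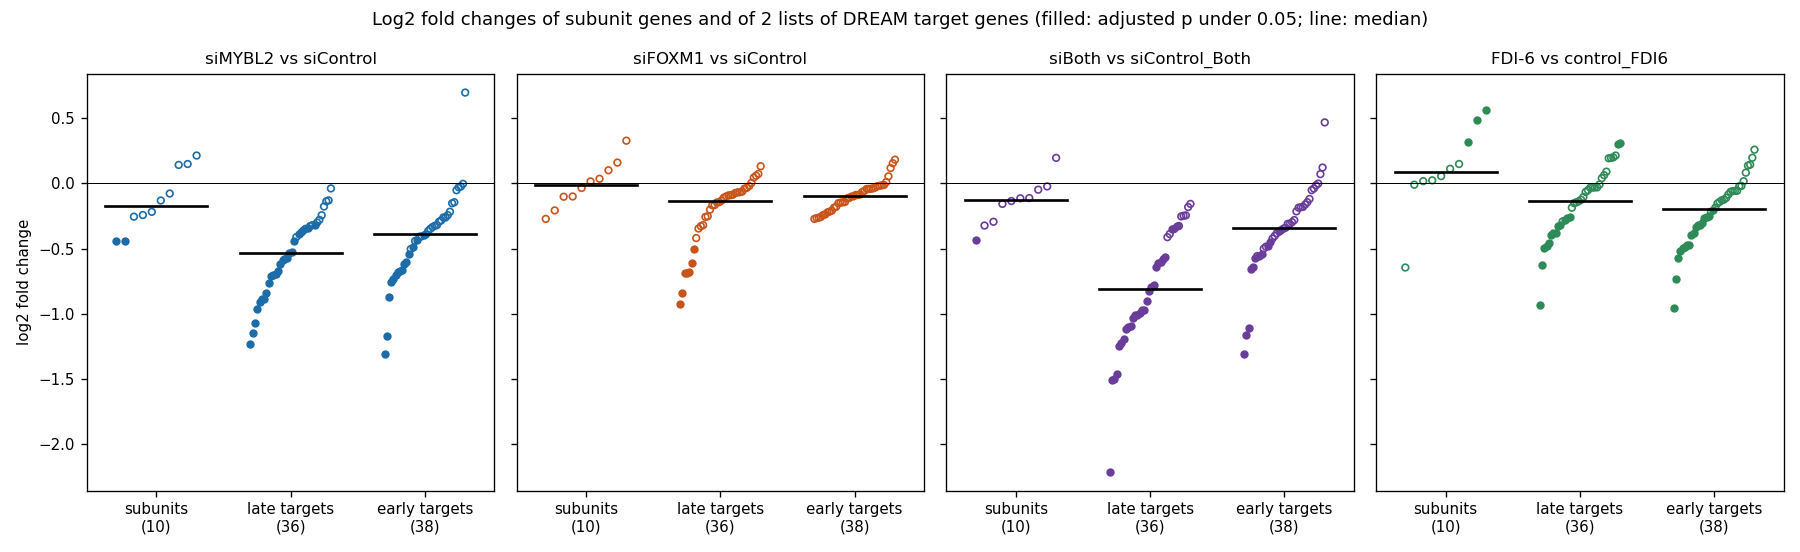
Log2 fold change of the 10 subunit genes, the 36 late targets and the 38 early targets in each comparison, 1 point per gene in rising order, filled where the adjusted p is under 0.05, with the list's median as a line. The late targets reach -2.21 with siBoth, while the subunits lie between -0.65 and 0.56 in all 4 comparisons.

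RBL2 had the lowest adjusted p of any subunit in the 4 comparisons of a treatment with its control, and no subunit passed the test with a change over 1.5-fold in them. Of 11369 genes compared over the 24 libraries, each library taken relative to its own controls, R3HDM2 and CEP44 had the patterns nearest to RBL2. Their root mean square log2 differences from RBL2 were 0.0973 and 0.099, against 0.249 for the distance of RBL2 itself from no change. These points share their libraries and depth, and base composition was not compared. With FDI-6 the mean log2 differences were 0.40 for R3HDM2, 0.36 for CEP44 and 0.46 for RBL2.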

How the data were processed

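Paired reads of 24 A549 libraries had been trimmed with Trim Galore, aligned to hg38 with STAR and counted by HTSeq over GENCODE V29. The deposited values are raw counts, whole read pairs for each gene, without normalization by the authors. Pairs that fit several genes or places were left out of them. Tool versions and the strand setting were not given in the sources used here. Identifiers were matched without version to GENCODE V44 on the same build (58207 found, 514 not), and levels per kb use the length of merged exons.

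Each treatment was compared with its own control in edgeR 4.0.16 (R 4.3.3), with TMM scaling, filterByExpr, no block, the quasi-likelihood test and Benjamini-Hochberg adjustment over all genes tested. Genes at an adjusted p under 0.05 passed the test, and a second rule also asked for a fold change over 1.5. Normalized counts are CPM with TMM-scaled library sizes. Overlap of groups and signs of same-numbered pairs were not counted over all genes in any comparison, so they describe the named genes only. Differences between effects were contrasts in a single fit. The alternatives were DESeq2 1.42.0, other scalings and filters, the replicate number as a block, all 12 single-knockdown libraries in 1 fit and leaving out each library. The correction for GC content and length, a trend of 5 degrees of freedom per library fitted on genes averaging 50 counts or more, was added after seeing the data. Its GC content and length were those of the longest transcript.

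The replicate numbers come from the sample labels. Deviations of same-numbered libraries correlated at 0.57 to 0.874 for siMYBL2, 0.537 to 0.905 for siFOXM1 and 0.552 to 0.687 for siBoth, and at -0.286 to 0.159 for FDI-6, so the block is given beside the knockdown results. No pair of libraries of a group had counts within sampling noise (chi-square per gene at least 3.57). Depth was 16487394 to 30140550 pairs per library. The edgeR fit without a block was tried on simulated counts for some of the comparisons. That simulation had no shift shared by same-numbered libraries, and the blocked and corrected fits were not simulated.

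All 10 genes were named, with MYBL2 and FOXM1 as the check of the targets, up to 2 genes per further list by lowest adjusted p, and the 3 genes most like the subunit with the lowest adjusted p, 1 of which is not reported here. No measured value entered the rule for the subunits, but the set of genes and the lists were chosen with earlier results of these data known.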

Additional observations from a re-analysis of the deposited data

Results flagged for a closer look

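In the groups of 4 libraries, 30 pairs of a subunit and a group were checked for a library far from the others, by the gap to its nearest neighbor over the range of the group, and 2 stood out. Chance gives about 1 such case in 20. The E2F4 level in siControl replicate 4, 65.7 normalized counts, had a gap of 0.842 of the range, below the other 3 libraries at 79.5 to 82.1. The LIN54 level in siFOXM1 replicate 4, 26.1 normalized counts, had a gap of 0.843, below the other 3 at 28.2 to 28.6. Both come from replicate 4, which also held the highest RBL2 levels of its groups, and whether these share a source was not tested. Without siControl replicate 4 the E2F4 change with siMYBL2 was at the far end of its range, -0.52 on the log2 scale.

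The effect of FDI-6 and the effect of siFOXM1 differed for 2 subunits in a test of the difference itself. LIN54 differed by 0.59 and RBL1 by 0.52 on the log2 scale, FDI-6 effect minus siFOXM1 effect. With the correction for GC content and length, chosen after the data were seen, they were 0.24 and 0.21.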

How the results depend on the processing

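The directions of the subunits that passed the test held under every alternative run. The number of subunits past the threshold did not. With the replicate block it was 6 for siMYBL2 (2 without), 6 for siFOXM1 (0), 3 for siBoth (1), 1 for the siBoth effect minus the siMYBL2 effect (0) and 4 for the FDI-6 effect minus the siFOXM1 effect (2), and with FDI-6, where same-numbered libraries did not deviate together and the block moved the genes passed from 5935 to 5153, it stayed at 3. With the block and the correction for GC content and length, chosen after seeing the data, these were 6, 6, 3, 1 and 4, and 7 in siMYBL2 against siFOXM1. The correction alone gave 0 for siBoth. Upper-quartile scaling gave 1 for siMYBL2 (LIN9), and DESeq2 gave 1 for siFOXM1. DESeq2 and the fit of all 12 libraries gave 3 for siMYBL2, with LIN54 added. Upper-quartile scaling and the minimum of 10 counts gave 3 in place of 4 for siMYBL2 against siFOXM1, without RBL2, and upper-quartile scaling gave 3 in place of 2 for the FDI-6 effect minus the siFOXM1 effect. The correction alone gave 4 in place of 3 for FDI-6. Passing with over 1.5-fold, siMYBL2 against siFOXM1 had 0 subunits in place of 1 with upper-quartile scaling, and the FDI-6 effect minus the siFOXM1 effect had 0 in place of 1 with upper-quartile scaling and with at least 10 counts in every library. Leaving out 1 library gave 1 to 2 subunits for siMYBL2, 0 to 2 for siBoth, 2 to 4 for siMYBL2 against siFOXM1, and with over 1.5-fold 0 to 1 there, 0 to 1 for FDI-6 and 0 to 2 for the FDI-6 effect minus the siFOXM1 effect. The cause was not tested.

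Some values near 0 changed sign, and 1 of them passed the test after doing so. RBBP4 with FDI-6 went from 0.02 to -0.29 with the correction, with and without the block (-0.2925 and -0.2908), and to -0.019 with upper-quartile scaling. With the correction, alone and with the block, LIN54 with siFOXM1 went to 0.0089 and 0.0085, LIN52 with siBoth to 0.0485 and 0.0489, RBBP4 with siBoth to 0.0129 and 0.0114, and LIN9 with FDI-6 to -0.0077 and -0.0117. Upper-quartile scaling took LIN52 (0.0526) and E2F4 (0.0271) with siBoth and E2F4 with FDI-6 (-0.0253) across 0. Leaving out 1 library spanned 0 for LIN37 (-0.113 to 0.12) and RBBP4 (-0.0030 to 0.0419) with siFOXM1, for LIN37 (-0.269 to 0.0317), LIN52 (-0.103 to 0.0063) and E2F5 (-0.0278 to 0.302) with siBoth, for RBBP4 (-0.0143 to 0.0562), E2F4 (-0.0224 to 0.053) and E2F5 (-0.109 to 0.0581) with FDI-6, and for the log2 ratios of RBL1 to RBL2 with siMYBL2 (-0.154 to 0.169) and of E2F4 to E2F5 with FDI-6 (-0.0385 to 0.161).

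The genes that passed the test rose with the replicate block from 2902 to 7507 for siMYBL2, from 217 to 4187 for siFOXM1 (677 with DESeq2, 336 with all 12 libraries in 1 fit), from 1949 to 5501 for siBoth (727 to 1657 leaving out 1 library), from 3757 to 7903 for siMYBL2 against siFOXM1, from 30 to 1200 for the siBoth effect minus the siMYBL2 effect (138 with DESeq2, 17 with the correction) and from 3566 to 6523 for the FDI-6 effect minus the siFOXM1 effect (2196 with the correction). Upper-quartile scaling moved the genes past 1.5-fold from 443 higher and 576 lower to 610 and 417 for siBoth, from 1219 and 879 to 1035 and 1045 for FDI-6, and from 1247 and 712 to 1024 and 967 for the FDI-6 effect minus the siFOXM1 effect. Per kb of the longest transcript, all 10 subunits kept their place in the order of levels. Requiring 10 counts in every library left LIN37 untested with FDI-6, and counts of 7 to 87 pairs limit what can be said of it.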
